A study of Mus musculus with 15 samples.

Results

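The 10 genes described here code for the best known heat shock chaperones and their helpers in the mouse: Hspa1a, Hspa1b and Hspa8 of the HSP70 family, Hsph1, Dnajb1, Bag3, Hsp90aa1, the small heat shock protein gene Hspb1, and the mitochondrial chaperonin genes Hspd1 and Hspe1. They were taken by symbol from a table of raw read counts, and all 10 were among its 37991 Ensembl gene identifiers. RNA sequencing of polyadenylated RNA had been done on 15 libraries of C57BL/6 mice, in 2 fat depots and 2 genotypes (wild type and IL-33-/-, mice labelled as lacking the cytokine IL-33). Brown adipose tissue at postnatal day 0.5 gave 4 wild-type and 4 labelled knockout libraries. Inguinal white adipose tissue at day 24 gave 4 wild-type libraries and 3 knockout libraries, numbered 2 to 4. Depot and age differ together, so they cannot be told apart. The labels do not say which stretch of Il33 is deleted, nor whether the libraries of a group are separate animals, so the spread behind each p-value is that of these libraries and could be technical.

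Chaperones bind unfolded protein and help it to fold. HSP70 proteins take up client protein with ATP, J-domain proteins such as DNAJB1 deliver it, and nucleotide exchange factors such as HSPH1 and BAG3 release it. HSP90 acts on clients nearer to their final shape, small heat shock proteins hold unfolded protein without ATP, and HSPD1 with its lid HSPE1 folds protein imported into mitochondria. Heat and other protein damage activate the transcription factor HSF1, which binds heat shock elements, inverted repeats of the letters GAA, in the promoters of such genes.

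Depth ran from 26059635 to 53923009 counts per library, both of these being inguinal wild-type libraries. The targeted gene Il33 was lower in every inguinal knockout library (0.0791 to 0.471 CPM, counts relative to the TMM-scaled library size, the unit of all levels below) than in every wild-type one (3.45 to 4.61 CPM). In brown tissue the labelled knockout libraries (0.413 to 1.75 CPM) overlapped the wild-type ones (1.73 to 3.21 CPM), so that group is called labelled knockout throughout. Adipocyte markers (Adipoq, Plin1, Fabp4, Cidec and Lep) summed to 8135 to 18277 CPM over the 15 libraries, and none of the 5 was at 0 in any group.

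A single library has to be described before any comparison. Brown labelled knockout library 1 held 41.8 CPM of Hspa1b where the other 7 brown libraries held at most 0.792 CPM, and the brown values of the 10 genes are therefore given with and without it. That choice came from the values of these same genes. All adjusted p-values without library 1 depend on that choice and are descriptive. Brown labelled knockout library 4 had the most genes at least 2 times above every other brown library (79, against 67 in library 1 and 5 to 9 in the others), but none of the 10 chaperone genes was among them.

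The promoters of 4 of these genes are shown because Hspa1a, Hspa1b and Hsph1 stood out in library 1, and because Hspd1 and Hspe1 share 1 promoter region. The sequences are RefSeq promoters of build GRCm38.p6, 250 bases before to 50 bases after a start site, and 8 of the 10 genes had an entry (not Hspa8 and Hsp90aa1). They lie at chr17:34972107-34972406 (Hspa1a, minus strand), chr17:34959189-34959488 (Hspa1b, minus strand), chr5:149636266-149636565 (Hsph1, minus strand, 1 of 2 start sites listed) and chr1:55087898-55088197 (Hspe1, plus strand). Capitals mark matches to a heat shock element.
Hspa1a: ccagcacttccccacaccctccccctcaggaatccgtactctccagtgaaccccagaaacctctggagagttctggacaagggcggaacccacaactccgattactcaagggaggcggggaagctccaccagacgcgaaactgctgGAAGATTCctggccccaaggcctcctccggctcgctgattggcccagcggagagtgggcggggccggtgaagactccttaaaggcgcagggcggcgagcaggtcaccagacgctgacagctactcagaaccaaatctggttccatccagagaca
Hspa1b: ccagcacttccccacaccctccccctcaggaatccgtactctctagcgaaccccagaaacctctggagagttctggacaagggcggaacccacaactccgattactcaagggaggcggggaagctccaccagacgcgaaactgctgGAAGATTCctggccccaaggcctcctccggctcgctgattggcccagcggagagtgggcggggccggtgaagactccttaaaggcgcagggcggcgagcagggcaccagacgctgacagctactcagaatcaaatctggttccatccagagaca
Hsph1: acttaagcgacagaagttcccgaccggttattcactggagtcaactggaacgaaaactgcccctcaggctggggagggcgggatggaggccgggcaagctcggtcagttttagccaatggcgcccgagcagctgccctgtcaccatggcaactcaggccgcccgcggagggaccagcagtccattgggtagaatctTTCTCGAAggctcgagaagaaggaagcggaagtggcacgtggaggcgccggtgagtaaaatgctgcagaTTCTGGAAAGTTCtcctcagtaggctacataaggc
Hspe1: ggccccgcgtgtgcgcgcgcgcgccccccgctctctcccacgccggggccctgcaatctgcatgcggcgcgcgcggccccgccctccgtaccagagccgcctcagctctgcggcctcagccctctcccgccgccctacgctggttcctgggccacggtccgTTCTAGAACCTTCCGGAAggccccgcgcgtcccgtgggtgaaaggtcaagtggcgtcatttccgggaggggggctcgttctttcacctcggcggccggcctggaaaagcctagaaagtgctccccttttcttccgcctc

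Matches were searched on both strands as a shorter element (GAANNTTC or TTCNNGAA) and a longer element (GAANNTTCNNGAA or TTCNNGAANNTTC), and a longer match always holds shorter ones. A match is a description of these letters, not a binding site, and no match says nothing about HSF1. The longer element was found for 3 of the 8 genes (Hsph1, Hspe1 and Hspd1), beside 0.662% of all 27025 genes and 0.603% of all 32851 promoters in the table. The shorter one was found for 7 of the 8 (all but Dnajb1), beside 17.0% of genes and 15.1% of promoters. Of the 2 promoters listed for Hspd1, 1 held neither element. The Hspa1a and Hspa1b promoters differed at 4 of 300 bases, and each held 1 shorter match 104 bases before the start site. For Hsph1 the longer match began 15 bases after the start site printed here. Hspe1 and Hspd1 are transcribed away from each other, the windows of the 2 genes share 285 bases, and the longer matches capitalised in the Hspe1 promoter are the same letters that the Hspd1 promoter holds on the other strand.

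The brown comparison asked which of these genes differed between labelled knockout and wild-type newborn brown fat. With all 8 libraries, none of the 10 passed, although 7 had a positive log2 change. Hspa1b and Hspa1a had the largest log2 changes of the 10, both with library 1 and, at a smaller size, without it. Without that library, which was set apart by values of these genes, Hspa1b, Dnajb1 and Bag3 were called higher and Hspd1 lower in the labelled knockout group.

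In counts, edgeR's quasi-likelihood test called 0 of the 10 at a Benjamini-Hochberg adjusted p below 0.05, where 0.26% of the 15796 genes tested were called, and 5 of the 10 had an unadjusted p under 0.05. The DESeq2 Wald test called 0 (it gave no adjusted p for Hspa1a, Hspa1b and Hsph1), where it called 6.81% of all genes. In limma-voom with library quality weights 3 passed (Dnajb1, Hspb1 and Bag3), where 19.6% of all genes did. The median log2 change of the 10 was 0.47, beside 0.006 over all genes. Without library 1, edgeR called 3 higher and 1 lower, where 18.1% of 16071 genes were called (9.66% higher and 8.41% lower). The medians were then 0.29 and -0.01.

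**Figure D1:**
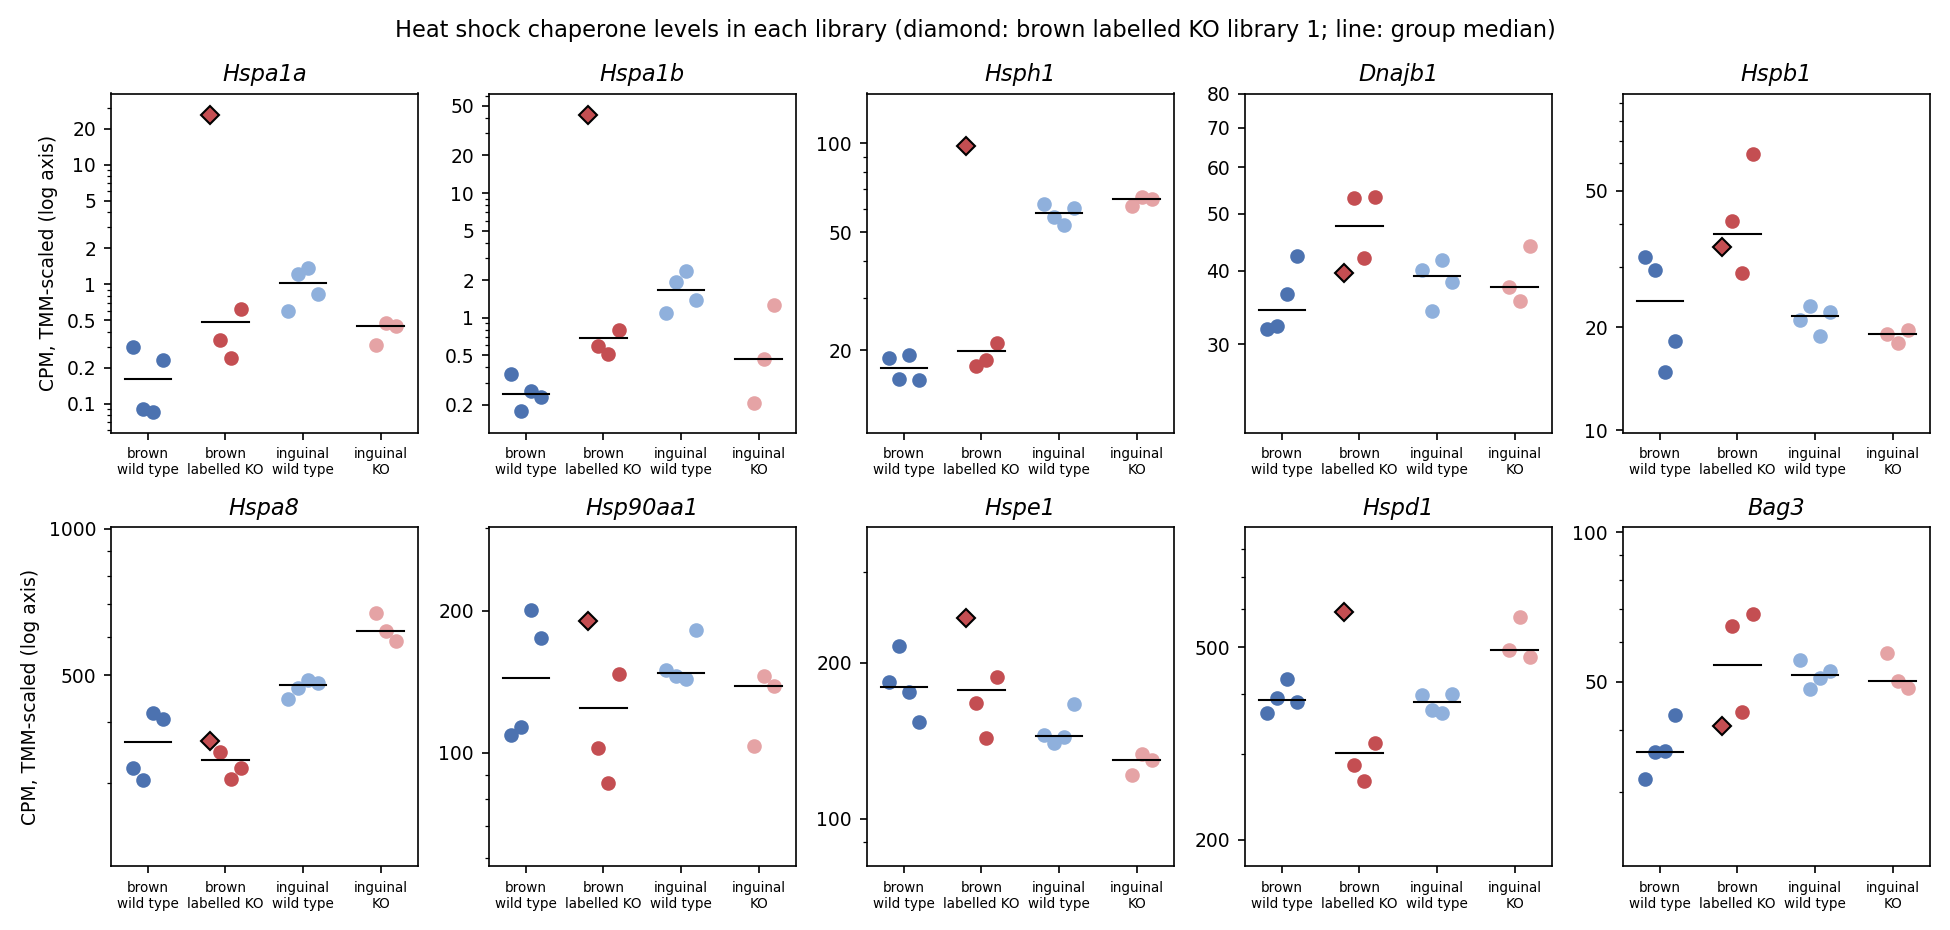
Level of each of the 10 chaperone genes in the 15 libraries (CPM, TMM-scaled, log axis, each panel with its own range); points are libraries, lines are group medians and the diamond is brown labelled knockout library 1. In the Hspa1a, Hspa1b and Hsph1 panels the diamond lies far above the other brown libraries, and in the Hspa8 and Hspd1 panels the 3 inguinal knockout libraries lie above the 4 inguinal wild-type ones.

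Hspa1b (ENSMUSG00000090877) codes for one of 2 nearly identical stress-inducible HSP70 proteins. Its level was 0.353, 0.180, 0.258 and 0.233 CPM in wild-type brown libraries 1 to 4 and 41.8, 0.594, 0.514 and 0.792 CPM in labelled knockout libraries 1 to 4. All 4 labelled knockout libraries lay above all 4 wild-type ones, as did those of 4.88% of genes, with library 1 holding 1520 raw counts and the other 7 brown libraries 6 to 32. The log2 change was 5.38 ± 1.64 (SE, edgeR adjusted p = 0.150) with library 1 and 1.29 ± 0.36 (adjusted p = 0.0349) without it.

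Its neighbour Hspa1a (ENSMUSG00000091971), which codes for the other stress-inducible HSP70, was at 0.298, 0.0901, 0.0860 and 0.233 CPM in wild-type brown libraries and 26.4, 0.344, 0.244 and 0.619 CPM in labelled knockout ones. Library 1 was again the only high one, and labelled knockout library 3 lay within the wild-type range. Over the groups the log2 change was 5.22 ± 1.67 (edgeR adjusted p = 0.159) with library 1 and 1.15 ± 0.53 (0.159) without it. Outside library 1 these values rest on few reads, 3 to 25 raw counts a library, and 3 counts gave an exact Poisson 95% interval of 0.0177 to 0.251 CPM (counting error only).

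Reads of the 2 genes can be hard to separate: in the reference transcripts 58.8% of the 50-base windows of Hspa1a also occur in Hspa1b, and 62.3% the other way round. The annotated gene Gm20481 overlaps Hspa1a on the opposite strand. How reads that match both were counted was not given in the sources used here, so the split between them is uncertain. Hspa1b took 61.3% of their joint counts in library 1 and 40% to 75% across all 15 libraries. Summed, they came to 68.3 CPM in library 1 and 0.270 to 1.41 CPM in the other 7 brown libraries.

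Hsph1 (ENSMUSG00000029657) codes for HSP110, an HSP70 relative that serves as its exchange factor. It stood at 18.8, 15.9, 19.3 and 15.8 CPM in wild-type brown libraries and 98.0, 17.6, 18.5 and 21.2 CPM in labelled knockout ones. Apart from library 1 the groups overlapped. With it the log2 change was 1.14 ± 0.54 (edgeR adjusted p = 0.296), and without it 0.12 ± 0.12 (0.516).

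Dnajb1 (ENSMUSG00000005483), the J-domain partner of inducible HSP70, did not share the pattern of library 1. Its wild-type levels were 31.9, 32.2, 36.5 and 42.5 CPM and its labelled knockout levels 39.6, 53.2, 42.1 and 53.4 CPM, with library 1 the lowest of the latter. The groups overlapped, and the log2 change was 0.39 ± 0.14 (edgeR adjusted p = 0.192) with library 1 and 0.46 ± 0.13 (0.0335) without it.

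Bag3 (ENSMUSG00000030847), an HSP70 exchange factor that directs damaged protein to autophagy, was likewise lowest in library 1 among the labelled knockout libraries. It was at 31.9, 36.0, 36.2 and 42.8 CPM in wild-type and 40.7, 64.7, 43.5 and 68.3 CPM in labelled knockout brown tissue. Its log2 change was 0.55 ± 0.18 (edgeR adjusted p = 0.161) with library 1 and 0.67 ± 0.16 (0.0183) without it. Without library 1 the labelled knockout libraries lay wholly above the wild-type ones for Bag3 and Hspa1b, as they did for 15% of genes.

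Hspb1 (ENSMUSG00000004951), the small heat shock protein HSP25, ran from 14.8 to 32.0 CPM in wild-type and from 28.8 to 64.0 CPM in labelled knockout brown libraries. Labelled knockout library 4 was its highest and the groups overlapped. A log2 change of 0.83 ± 0.30 (edgeR adjusted p = 0.198) was found with library 1 and 0.91 ± 0.35 (0.112) without it. That same library 4 held 68.8 CPM of epithelial markers (Epcam, Krt5, Krt14, Krt8 and Krt18 summed), against 0.541 to 1.29 CPM in the other 7 brown libraries. Krt5 (45.4 CPM) and Krt14 (19.4 CPM) made up most of that sum. Krt8 was at most 0.496 CPM in labelled knockout brown libraries and reached 0.811 CPM in wild-type ones. The part of epithelial cells in the Hspb1 value was not tested.

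Hspd1 (ENSMUSG00000025980), the mitochondrial chaperonin, was at 366, 392, 429 and 385 CPM in wild-type brown libraries and at 591, 286, 264 and 317 CPM in labelled knockout ones. Library 1 was the highest of the 8 and the other 3 labelled knockout libraries were the lowest. With library 1 the log2 change was -0.12 ± 0.23 (edgeR adjusted p = 0.821), and without it -0.45 ± 0.10 (0.0144), with no overlap between the groups (15.5% of genes lay wholly lower).

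The remaining brown values overlapped between groups with and without library 1. Hspe1 (ENSMUSG00000073676), the chaperonin's lid, was at 184, 215, 176 and 154 CPM against 244, 167, 143 and 188 CPM (log2 change 0.02, 95% interval -0.31 to 0.34, and without library 1 -0.14, interval -0.39 to 0.11). Hspa8 (ENSMUSG00000015656), the constitutive HSP70, was at 322, 304, 418 and 406 against 366, 348, 306 and 323 CPM (log2 change -0.12, interval -0.38 to 0.13, and without library 1 -0.16, interval -0.42 to 0.09). Hsp90aa1 (ENSMUSG00000021270), the inducible HSP90, was at 109, 113, 201 and 175 against 190, 103, 86.4 and 147 CPM (log2 change -0.20, interval -0.75 to 0.35, and without library 1 -0.43, interval -0.96 to 0.11). These and the later intervals are normal intervals from the SE, narrower than the edgeR test with so few libraries would give. The brown interval of Hsp90aa1 was the widest of these 3 genes.

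**Figure D2:**
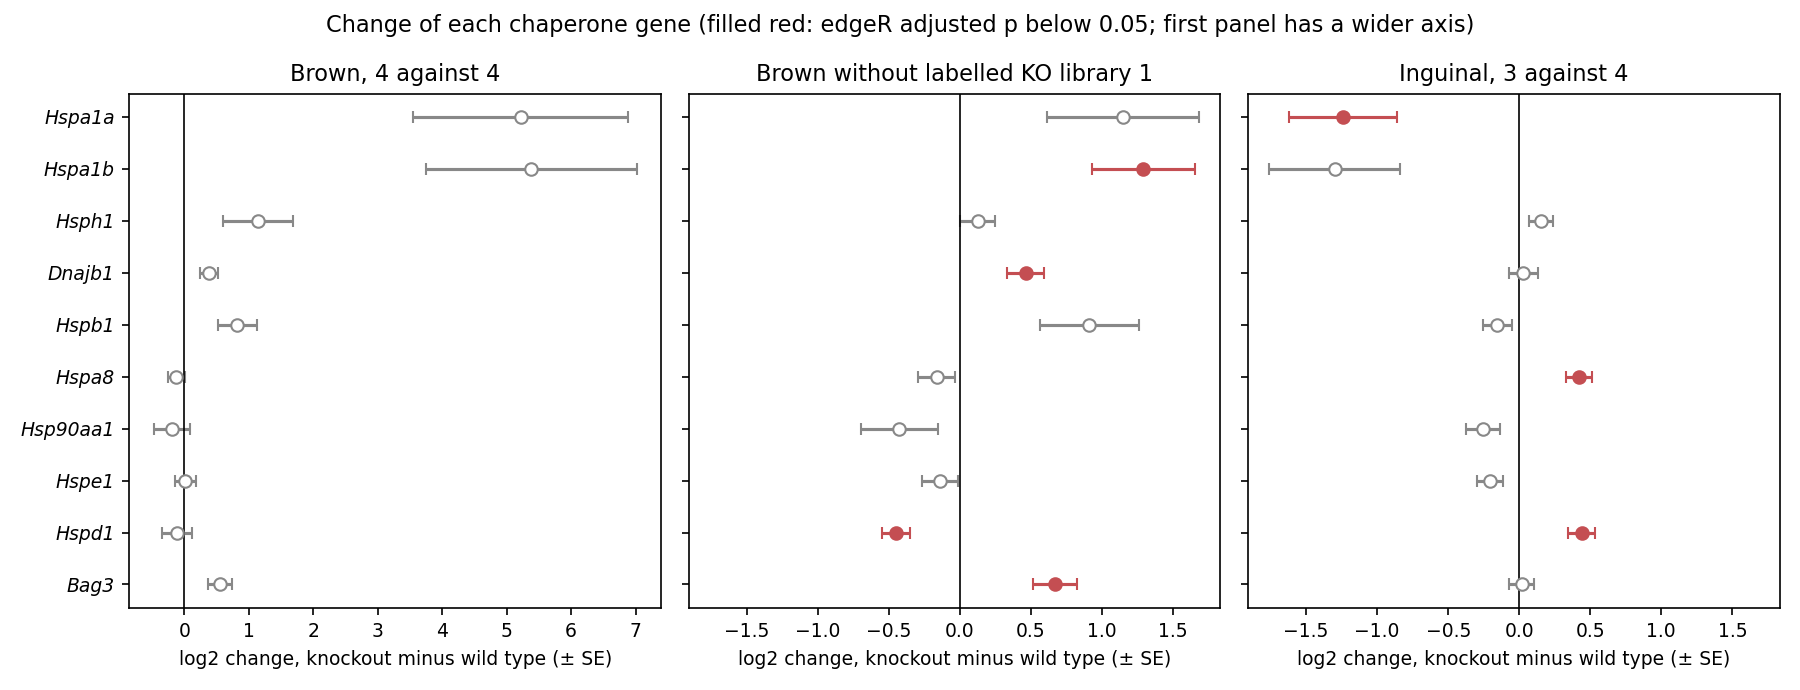
Log2 change (knockout minus wild type, ± SE) of each chaperone gene in brown tissue with all 8 libraries, in brown tissue without labelled knockout library 1, and in inguinal tissue; filled red points passed at an edgeR adjusted p below 0.05 and the first panel has a wider axis. No point is filled in the first panel, 4 are in the second (Hspa1b, Dnajb1, Hspd1 and Bag3) and 3 in the third (Hspa1a, Hspa8 and Hspd1).

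Few heat shock genes stood far above the other brown libraries in library 1. Against the highest of the other 7 brown libraries it held 52.8 times as much Hspa1b, 42.7 times as much Hspa1a and 4.62 times as much Hsph1. Among genes at 5 CPM or more these ranked 1, 2 and 4, and rank 3 went to Bhlhe40, a clock-linked repressor named here after its values were seen, at 8.82 times. Hspd1 and Hspe1 were also highest in library 1, while Hsp90aa1, Hspa8, Dnajb1, Bag3 and Hspb1 were not. Thus 5 of the 10 were highest there, beside 21.8% of all genes, and 3 were at least 2 times above the next library, beside 0.424%.

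Other genes known to rise with heat gave no such values. Of 15 further heat-inducible genes, 7 were highest in library 1 (21.8% of all genes were) and none was at least 2 times above the next brown library. Highest there too were 7 of 13 mitochondrial chaperones and proteases, 5 of 14 other HSP90 genes and co-chaperones and 5 of 13 endoplasmic reticulum genes. So were 3 of 10 other HSP70 genes, 2 of 6 other small heat shock protein genes and 5 of 21 immediate early genes. The counts were 4 of 21 for other J-domain genes, 3 of 14 for TRiC and prefoldin and 1 of 11 for BAG genes and HSP70 regulators. They were 0 of 4 for heat shock factors and 0 of 2 for cold-inducible genes. Among the 15 heat-inducible genes the most raised were Serpinh1, the collagen chaperone, at 1.50 times, and Stip1, which links HSP70 to HSP90, at 1.42 times. The factors Hsf1 and Hsf2 were at 0.860 and 0.863 times the highest other library. Of 13 endoplasmic reticulum chaperone and stress genes, Ddit3, a transcription factor of the stress response there, was at 3.11 times, and none of the other 12 reached 2 times. None of 21 immediate early genes reached 2 times the highest of the other 7, which include the other labelled knockout libraries. Against the median of those 7, Atf3 was at 6.59, Fos at 5.14 and Jun at 4.44 times, while Egr1, Klf2 and Klf4 were below it. The cold-inducible RNA-binding protein genes Cirbp and Rbm3 were at 0.669 and 0.517 times the highest other library. Markers of brown and beige adipocytes summed to 3358 CPM in library 1 and to 4568 to 9218 CPM in the other 7. Of these 5 markers Ucp1 and Cidea were lowest in library 1, and Ppargc1a was highest there (96.7 CPM against at most 84.1 CPM). Dio2 (13.4 CPM) lay within its wild-type range (4.10 to 40.6 CPM). Otop1 (28.1 CPM) was higher than in the other labelled knockout libraries and below every wild-type one (at least 53.7 CPM). The part of these cells in the chaperone values of library 1 was not tested. These are values of 1 library, with no test.

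**Figure D3:**
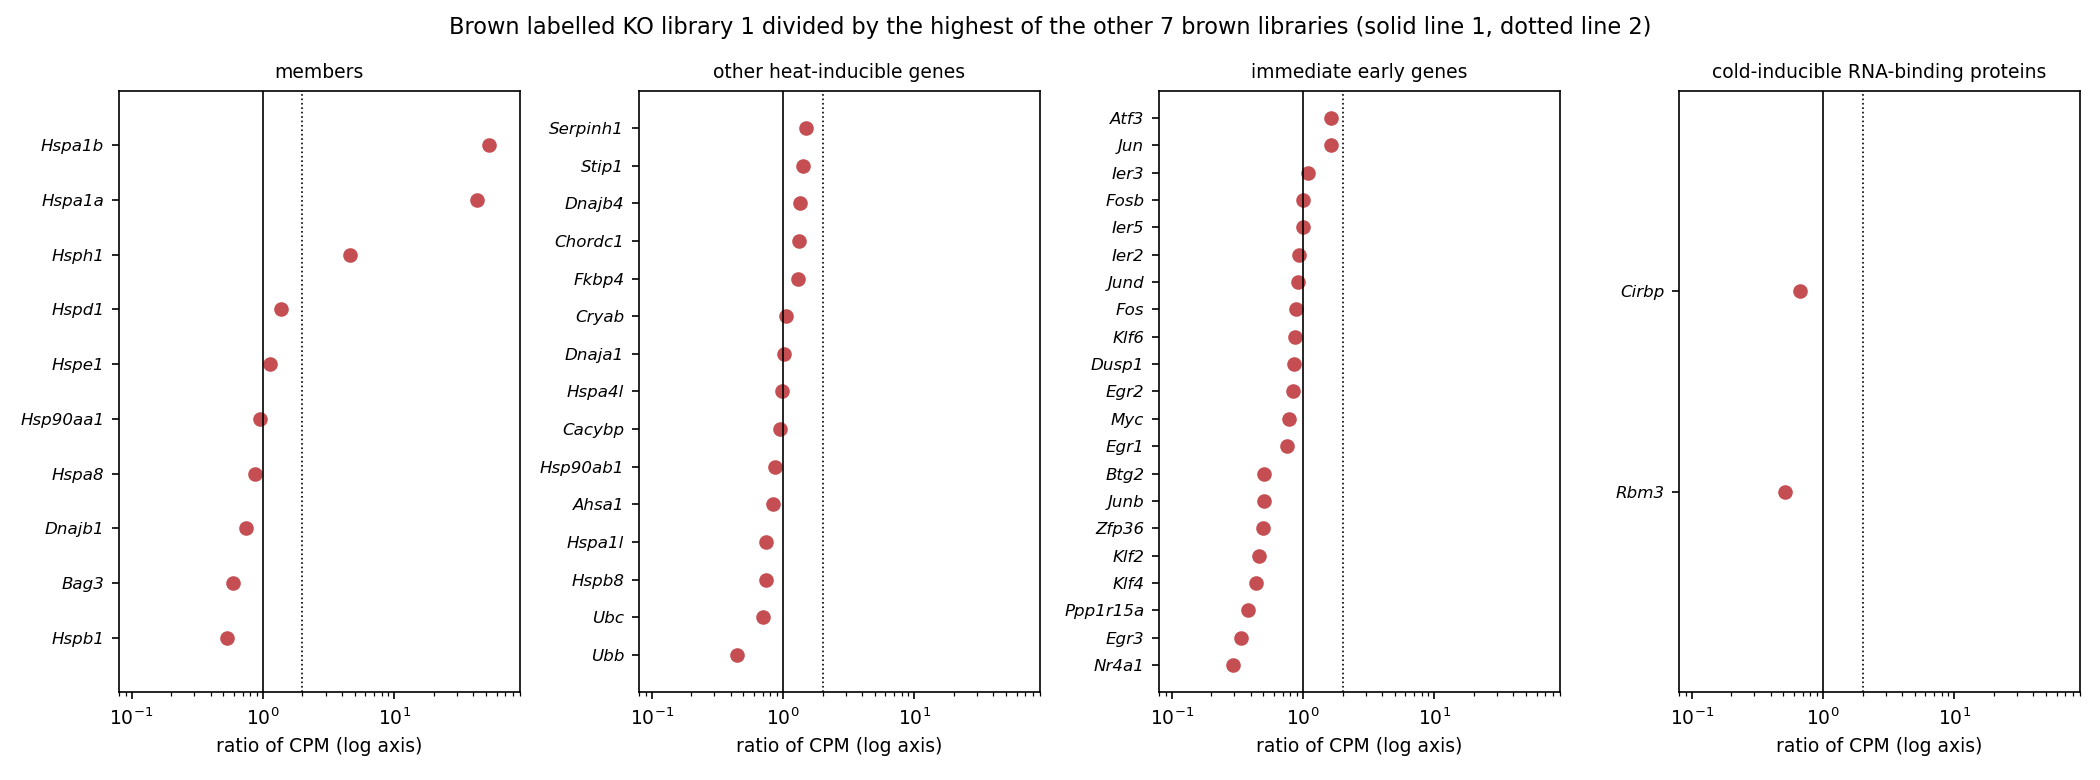
CPM of brown labelled knockout library 1 divided by the highest of the other 7 brown libraries, for the 10 chaperone genes, 15 other heat-inducible genes, 21 immediate early genes and 2 cold-inducible genes (log axis; solid line 1, dotted line 2). Hspa1b, Hspa1a and Hsph1 are the only points beyond the dotted line in these 4 panels.

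Among 103 other chaperone, co-chaperone and heat shock genes tested in brown tissue, edgeR called 0, with 20 at an unadjusted p under 0.05. The DESeq2 Wald test called 7 of them (6.8%) and limma-voom 20 (19.4%), near the shares of all genes they called (6.81% and 19.6%). Without library 1 edgeR called 15 higher and 8 lower (22.3%, near the 18.1% of all genes). The strongest in the HSP90 group were Sugt1 (log2 change 0.71 ± 0.10, adjusted p = 0.00232), Fkbp5, a glucocorticoid-induced HSP90 co-chaperone (2.49 ± 0.33, 0.00426), and Fkbp4 (-0.47 ± 0.09, 0.00639). Of 21 other J-domain genes 4 were called higher and 2 lower (9.66% and 8.41% of all genes were). Those higher included Dnajb12 (0.87 ± 0.10, 0.00102) and Dnajb6 (0.40 ± 0.09, 0.0136). Hsf1 (0.25 ± 0.13, 0.199) and Hsf2 (-0.23 ± 0.12, 0.214) did not pass.

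The immediate early genes, which respond to many stimuli within minutes, were the only list of the 12 pathway lists in which edgeR called genes in brown tissue with all 8 libraries. The DESeq2 Wald test also called genes of 7 other lists and limma-voom of 8. With all 8 libraries edgeR called 5 of 21 higher and none lower, where it called 0.26% of all genes. Their median log2 change was 0.95 beside 0.006 over all genes. The edgeR log2 changes were 2.80 ± 0.29 for Fos (adjusted p = 0.0122) and 1.86 ± 0.20 for Jun (0.0128). Without library 1, 15 of 21 were higher, among them Zfp36 (1.80 ± 0.15, 0.000273), where 9.66% of all genes were higher. With any 1 of the 8 brown libraries left out, the count of genes called higher ran from 0 to 15. It was 0 without wild-type library 2, 1 without wild-type library 3 and 3 without wild-type library 4. It was 2 without wild-type library 1 or labelled knockout library 2 or 4. The part of these genes in the chaperone values was not tested.

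In inguinal fat of day 24 the question was the same. Hspa8 and Hspd1 were higher in knockout tissue, by 1.34-fold and 1.36-fold, and Hspa1a was lower, at 0.424 of the wild-type level. Hspa1b had a log2 change of -1.30 without passing, and Hsph1, Dnajb1, Hspb1, Hsp90aa1, Hspe1 and Bag3 did not pass. Calls thus went to 3 of the 10, where 28.6% of 15710 genes were called (15.3% higher and 13.3% lower), so the share of chaperone genes was close to that of all genes. Their median log2 change was -0.07, beside -0.02 over all genes.

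Hspa8 was at 446, 471, 489 and 482 CPM in wild-type inguinal libraries. The 3 knockout libraries held 672, 618 and 589 CPM. The groups did not overlap, as those of 18.3% of genes did not on the higher side. The log2 change was 0.42 ± 0.09 (edgeR adjusted p = 0.00368), a 1.34-fold difference, and it passed without any 1 of the 7 libraries. In the reference annotation Hspa8 has 10 near-identical genes, to which some of its reads could also match.

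Hspd1 was at 399, 370, 366 and 400 CPM in wild-type and at 494, 578 and 477 CPM in knockout inguinal tissue. Again all 3 knockout libraries lay above all 4 wild-type ones. Its log2 change was 0.44 ± 0.10 (edgeR adjusted p = 0.00372), a 1.36-fold difference that also passed without any 1 library. With all 4 groups in 1 fit Hspd1 did not pass (0.181).

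Hspe1, which shares its promoter region with Hspd1, had the opposite sign in inguinal tissue. It was at 145, 140, 144 and 167 CPM in wild-type and 121, 133 and 130 CPM in knockout libraries. Every knockout library lay below every wild-type one (18.5% of genes did so), but the log2 change of -0.21 ± 0.09 did not pass (edgeR adjusted p = 0.0997).

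The ratio of Hspd1 to Hspe1, from CPM values not corrected for length and examined after the 2 patterns were seen, puts them together. It was 2.75, 2.64, 2.54 and 2.41 in wild-type inguinal libraries and 4.07, 4.34 and 3.67 in knockout ones. The knockout ratios lay above every other library of the series, since brown libraries ran from 1.82 to 2.51 (wild type) and from 1.69 to 2.42 (labelled knockout). Brown labelled knockout library 1, highest of the brown libraries in both genes, had a ratio of 2.42, within the wild-type range. The 2 genes overlap on opposite strands in the reference annotation so the counting could affect either level. The library kit keeps strand, but whether the counting used it was not given in the sources used here.

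**Figure D4:**
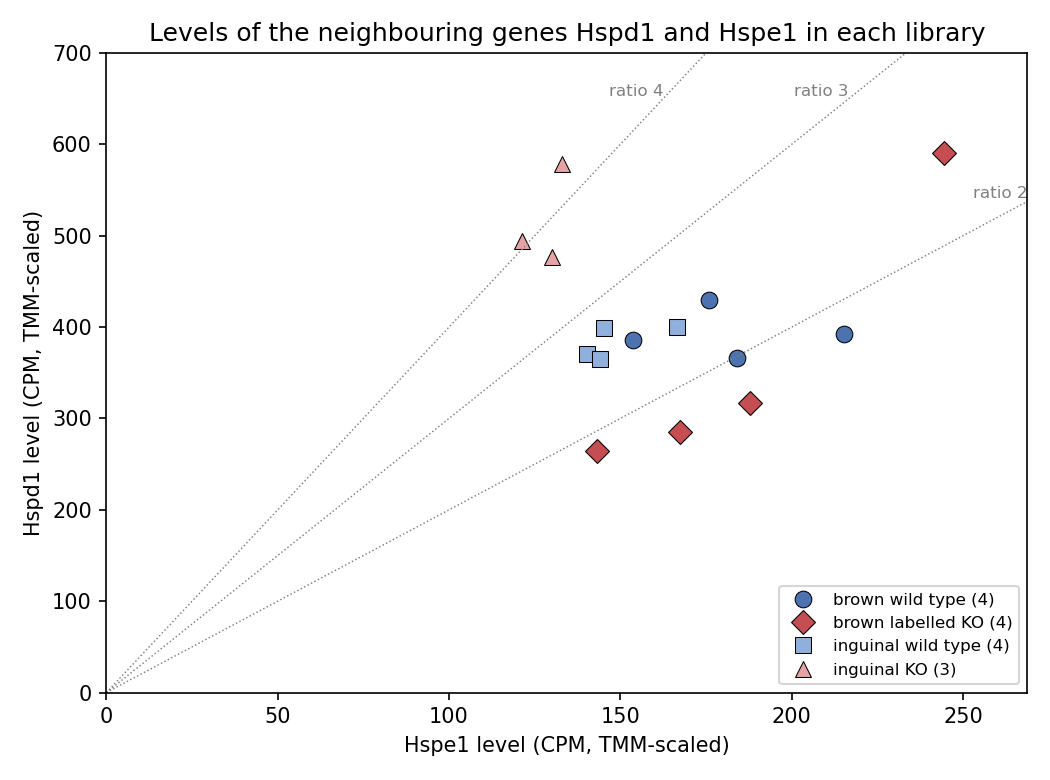
Hspd1 level against Hspe1 level (both CPM, TMM-scaled) in the 15 libraries; each point is a library and the dotted lines mark ratios of 2, 3 and 4. The 3 inguinal knockout libraries lie at ratios of 3.67 to 4.34, apart from the other 12, and brown labelled knockout library 1 is at the upper right with a ratio of 2.42.

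The inducible HSP70 genes had few reads in inguinal tissue. Hspa1a was at 0.597, 1.21, 1.37 and 0.826 CPM in wild-type and 0.311, 0.471 and 0.448 CPM in knockout libraries, and the groups did not overlap. The log2 change was -1.24 ± 0.38 (edgeR adjusted p = 0.0255), from 23 to 46 raw counts a library against 9 to 17. This call did not hold without wild-type library 2 or 3 (0.0653 and 0.0658) or without knockout library 2, 3 or 4 (0.0804, 0.0592 and 0.0510). It was also lost with limma-voom (0.0895) and with all 4 groups in 1 fit.

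Hspa1b was at 1.09, 1.93, 2.37 and 1.38 CPM in wild-type and 0.207, 0.471 and 1.27 CPM in knockout inguinal libraries. Knockout library 4 lay above wild-type library 1, so the groups overlapped. The log2 change was -1.30 ± 0.46 (edgeR adjusted p = 0.0515), and -2.26 (0.00323) without knockout library 4. For the summed counts of both genes the log2 change was -1.29 (0.0191).

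Markers of some cell types were lower in inguinal knockout libraries, and those of others were not. The 8 muscle markers summed to 126, 353, 289 and 191 CPM in wild-type inguinal libraries 1 to 4 and to 37.1 to 41.6 CPM in knockout ones, and 7 of the 8 were called lower. The 5 B cell markers summed to 10.4 to 17.8 CPM in wild-type libraries and to 4.29, 4.74 and 12.1 CPM in knockout libraries 2 to 4, which overlapped, and 1 of the 5 was called lower. Schwann cell markers summed to 595 to 688 CPM in wild-type and 383 to 497 CPM in knockout libraries (3 of 5 called lower and 1 higher). Endothelial markers summed to 814 to 977 and 728 to 795 CPM (2 of 5 called lower). The epithelial markers, too low to be tested, summed to 0.493 to 6.73 and 0.104 to 0.135 CPM. Sums overlapped, with no marker called, for T cells (6.37 to 10.9 and 6.12 to 12.6 CPM) and macrophages (265 to 368 and 263 to 324 CPM). The same held for erythroid markers (195 to 533 and 254 to 443 CPM). Of all these markers only Krt5 was at 0 in every library of a group, the knockout. The part of these cells in the Hspa1a and Hspa1b values was not tested, and in bulk tissue fewer cells of a type cannot be told apart from less RNA per cell.

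For the other members the inguinal groups overlapped. Hsph1 was at 62.4, 56.1, 52.8 and 60.3 CPM against 61.1, 65.7 and 64.7 CPM (log2 change 0.15, 95% interval -0.02 to 0.32). Dnajb1 ran from 34.2 to 41.7 and from 35.5 to 44.0 CPM (log2 change 0.03, interval -0.17 to 0.23), and Bag3 from 48.5 to 55.4 and from 48.6 to 57.0 CPM (0.02, interval -0.16 to 0.19). Hspb1 ran from 18.8 to 23.0 CPM in wild type and reached at most 19.6 CPM in the knockout (-0.16, interval -0.36 to 0.04). Hsp90aa1 ran from 143 to 182 and from 104 to 145 CPM (-0.25, interval -0.49 to -0.02). Its edgeR p was 0.053 unadjusted and 0.131 adjusted, so the normal interval left out 0 although the test did not pass.

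The wider chaperone network in inguinal tissue had 17 genes higher and 15 lower among 102 tested (31.4% called, near the 28.6% of all genes). Its mitochondrial branch went 1 way. Of 13 further mitochondrial chaperones and proteases, 9 were higher and none lower, with a median log2 change of 0.57 beside -0.02 over all genes. They included Clpx, the unfoldase of a matrix protease (log2 change 0.96 ± 0.08, edgeR adjusted p = 5.19e-06), Dnaja3, the matrix J-domain protein (0.87 ± 0.11, 7.47e-05), Afg3l2, an inner membrane protease (0.78 ± 0.09, 4.78e-05), and Lonp1, a matrix protease (0.76 ± 0.10, 0.00015). Hspa9, the mitochondrial HSP70, rose from 952 ± 31.7 CPM (SD, n = 4) to 1531 ± 183 CPM (n = 3), with a log2 change of 0.70 ± 0.10 (edgeR adjusted p = 0.000264), and its exchange factor Grpel1 by 0.59 ± 0.09 (0.000413). Leaving out any 1 inguinal library left 9 or 10 of the 13 called higher.

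Markers of brown and beige adipocytes, cells rich in mitochondria, moved with this branch. Ucp1, Cidea, Dio2, Ppargc1a and Otop1 summed to 1130 to 1750 CPM in wild-type and 2338 to 2923 CPM in knockout inguinal libraries, with 2 of the 5 called higher. None of the 5 was at 0 in either group. Their part in the mitochondrial chaperone values was not tested.

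**Figure D5:**
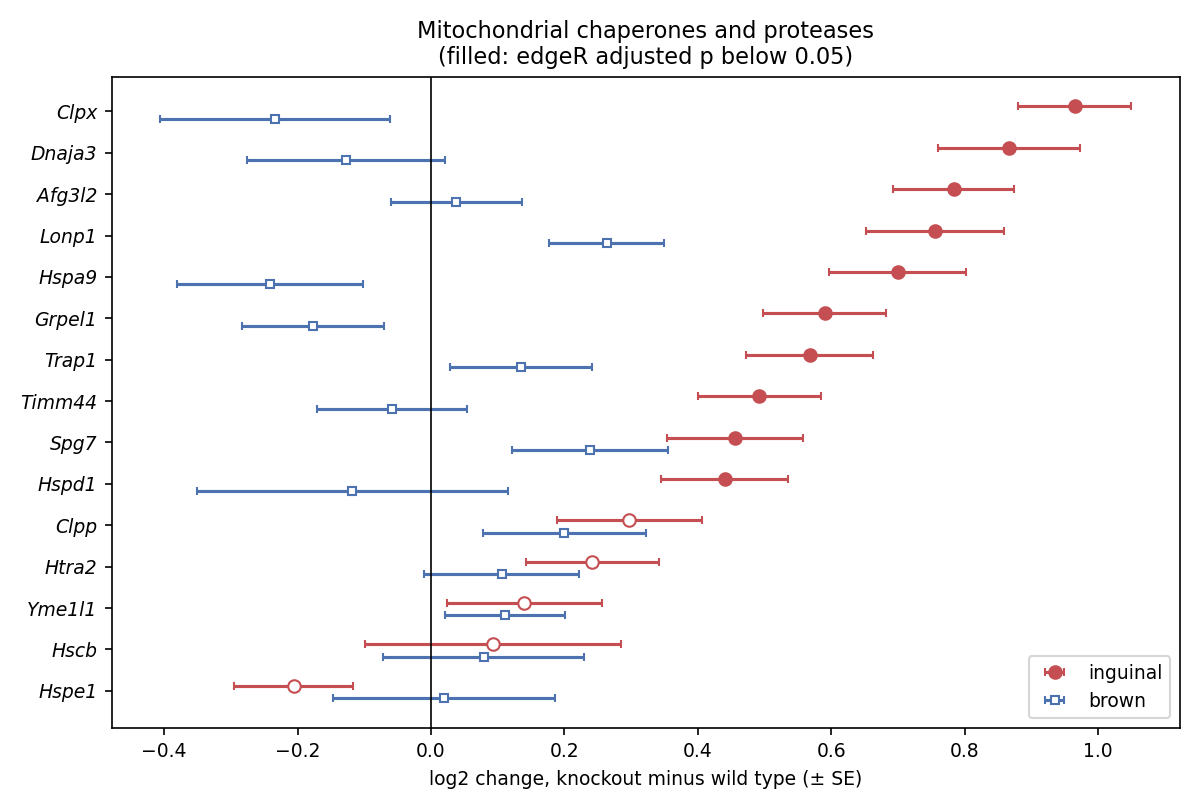
Log2 change (knockout minus wild type, ± SE) of Hspd1, Hspe1 and 13 other mitochondrial chaperone and protease genes in inguinal (circles) and brown tissue (squares, all 8 libraries); filled points passed at an edgeR adjusted p below 0.05. In inguinal tissue 10 of the 15 are filled and all of those lie to the right, Hspe1 is the only gene left of 0, and no brown point is filled.

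In inguinal tissue 15.3% of all genes were called higher and 13.3% lower. Of 15 other heat-inducible genes 2 were higher and 5 lower (median log2 change -0.09). They included the small heat shock protein genes Cryab (-0.95 ± 0.12, edgeR adjusted p = 9.78e-05) and Hspb8 (0.87 ± 0.12, 0.000158). Of 21 other J-domain genes 4 were higher and 2 lower, and of 14 other HSP90 genes and co-chaperones 1 was higher (Trap1, the mitochondrial HSP90) and 1 lower (Ppid). The TRiC chaperonin and prefoldin list, the cytosolic counterpart of HSPD1, had none higher and 2 lower of 14 (Pfdn5 and Cct4). Of 11 BAG genes and HSP70 regulators 3 were higher and none lower (Bag2 and the mitochondrial Grpel1 and Grpel2), and of 10 other HSP70 genes 2 were higher and 3 lower. Hsf1 (0.01 ± 0.13, 0.981) and Hsf2 (0.02 ± 0.11, 0.914) did not pass.

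The difference between the depots, the inguinal change minus the brown change, was tested in 1 fit of all 15 libraries. With all of them 0 of the 10 passed in edgeR, where 9% of 16858 genes did, and 5 had an unadjusted p under 0.05. The DESeq2 Wald test called 2 (Hspb1 and Hspa8), where it called 14.5% of all genes, and limma-voom 5, where it called 21.7%. Hspa8 was nearest to the threshold, with a difference of 0.52 ± 0.16 (edgeR adjusted p = 0.0501).

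Without brown labelled knockout library 1, 5 of the 10 passed, where 21.2% of 16808 genes did (11.3% more positive and 9.92% more negative). As above, these calls depend on a choice made from the same genes. The change was more positive in inguinal than in brown tissue for Hspd1 (difference 0.88 ± 0.14, edgeR adjusted p = 0.000303) and Hspa8 (0.58 ± 0.16, 0.0156). It was more negative for Hspa1b (-2.62 ± 0.66, 0.00885), Hspa1a (-2.40 ± 0.66, 0.0156) and Bag3 (-0.66 ± 0.19, 0.019). For Dnajb1 (-0.44 ± 0.17, 0.0725) and Hspb1 (-1.08 ± 0.39, 0.0655) the difference did not pass.

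With library 1 included, 7 of 13 mitochondrial chaperones and proteases were more positive in inguinal tissue and none more negative, where 9% of all genes were called. The differences were 1.18 ± 0.20 for Clpx (edgeR adjusted p = 0.00287) and 0.92 ± 0.18 for Hspa9 (0.00574). The number was 5 to 8 when any 1 of the 15 libraries was left out. It was 8 without brown labelled knockout library 1, where 11.3% of all genes were more positive. Il33 levels separated the groups in inguinal tissue and overlapped in brown tissue, as given above.

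Wild-type tissues were compared last, as brown newborn against inguinal day-24 fat. Here 1 of the 10 was higher and 5 were lower in brown tissue, where 61.4% of 15979 genes were called (30.7% in each direction), so the share of chaperone genes called was close to that of all genes. Hsph1 had the smallest p, at 15.8 to 19.3 CPM in brown and 52.8 to 62.4 CPM in inguinal libraries without overlap, a log2 difference of -1.73 ± 0.09 (edgeR adjusted p = 3.1e-08). Hspa1b (-2.69 ± 0.34, 2.71e-05), Hspa1a (-2.43 ± 0.43, 0.000422), Bag3 (-0.49 ± 0.09, 0.000486) and Hspa8 (-0.38 ± 0.11, 0.00812) were also lower in brown tissue. These 5 genes did not overlap between the tissues, as 28.6% of genes did not on the lower side.

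Hspe1 was the 1 gene higher in wild-type brown tissue (0.29 ± 0.10, edgeR adjusted p = 0.0258), with overlapping groups. Its call was lost without wild-type brown library 2 or without inguinal library 1, 2 or 3 (0.0649 to 0.0797). Hspd1 (0.04, 95% interval -0.11 to 0.18) and Dnajb1 (-0.11, interval -0.31 to 0.09) had narrow intervals around 0, and Hspb1 (0.15, interval -0.30 to 0.60) and Hsp90aa1 (-0.05, interval -0.45 to 0.35) wider ones. Of the other heat-inducible genes 10 of 15 were lower and 2 higher in brown tissue, where 30.7% of all genes were called in each direction. Those lower were led by Dnaja1 (-1.10 ± 0.08) and Serpinh1 (-1.94 ± 0.11). Hsf1 was lower (-0.37 ± 0.10, adjusted p = 0.00716) and Hsf2 higher (0.23 ± 0.09, 0.0327).

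Ordered by group, Hspa8 rose from brown tissue, where labelled knockout and wild type overlapped, through inguinal wild type to inguinal knockout, with no overlap at either later step. For Hsph1 the inguinal groups overlapped each other and stood above every brown library except library 1. For Hspd1 the 2 wild-type groups overlapped, inguinal knockout lay above both, and 3 of the 4 brown labelled knockout libraries lay below both. Dnajb1, Hspb1 and Hsp90aa1 overlapped in each pair of groups next to each other in the order of their medians.

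Across genes, levels can be compared only per length. Per kilobase of exon, with lengths from GENCODE annotation of GRCm38 and not of the mm9 build used for the counts, wild-type inguinal medians were 146 CPM for Hspd1, 111 for Hspa8, 98.2 for Hspe1 and 37.6 for Hsp90aa1. They were 20.9 for Hspb1, 20.2 for Bag3, 12.2 for Dnajb1 and 8.01 for Hsph1, and 0.591 and 0.343 for the inducible Hspa1b and Hspa1a. Together the 10 genes took 0.0959% to 0.177% of all counts, the highest share being that of brown labelled knockout library 1 and the next that of an inguinal knockout library (0.152%).

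Genes with the most similar pattern over the 15 libraries were sought by the smallest root-mean-square difference of centred log2 CPM among 10739 genes of at least 5 CPM. For Hspa1b they were Atf3 (1.29), P4ha1 (1.35) and Strip2 (1.42), against a standard deviation of 1.88 for Hspa1b itself, so the likeness was loose. For Hsph1 they were Amotl2 (0.33), Lmnb2 (0.37) and Vwa1 (0.38), against 0.96, and Amotl2 was itself 3.05 times above the other brown libraries in library 1. For Dnajb1 they were Nob1, Rundc1 and Rassf1 (0.11 to 0.12, against 0.22), and for Hspd1 Ptcd3, Lzic and Zfp770 (0.11 to 0.14, against 0.33). These are descriptions over 15 libraries that differ in depth, and libraries of a group share depot, age and genotype label.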

How the data were processed

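The authors deposited un-normalized read counts for each gene, and these were used as they are. The labels' protocols describe extraction with TRIsure and a spin column and a stranded mRNA library kit. Tools named in the submitters' processing notes are TopHat2 2.1.0, Subread with featureCounts, and edgeR, on build mm9. Their roles, the annotation release and the strand and multi-mapping settings were not given in the sources used here. A symbol was found for 32919 of 37991 gene identifiers.

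The 10 genes, the gene lists (189 of 190 entries matched), the tests and the naming rule were chosen with earlier results of these data known. The rule names all 10, Hsf1 and Hsf2, up to 4 called genes per list and comparison by smallest p, and the 3 genes most like Hspa1b, Hsph1, Dnajb1 and Hspd1 in pattern. Some genes are on more than 1 list.

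Fits used edgeR 4.0.16 in R 4.3.3 on the libraries of each comparison: filterByExpr (minimum count 10), TMM scaling, and the quasi-likelihood F-test with robust dispersions. P-values were adjusted by Benjamini-Hochberg over all genes tested, with a threshold of 0.05. The SE was taken from the log2 change and the F statistic (its absolute value over the root of F). Levels are CPM scaled by TMM over all 15 libraries. Near-identical genes were sought with blastn 2.17.0 at 95% identity over at least 100 bp. The alternatives tried were scaling by the DESeq2 size factors, dropping the low-count filter, the DESeq2 1.42.0 Wald test, limma-voom (limma 3.58.1), dispersions that are not robust, a replicate block, Hspa1a and Hspa1b summed, a joint fit of all 4 groups, and omission of each library in turn. The fits were tested on simulated counts. No libraries of a group agreed within sampling noise (lowest chi-square per degree of freedom 14.7).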

Additional observations from a re-analysis of the deposited data

Results flagged for a closer look

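In 5 of the 30 pairs of a gene and a group of 4 libraries, the highest library lay farther from the next than the 95% critical value of Dixon's test allows. Chance flags about 1 in 20 such groups, but the 30 pairs share libraries and are not independent, so no excess can be read from the count. Of the 5 flagged, 4 were in brown labelled knockout library 1, at 26.4 CPM for Hspa1a, 41.85 CPM for Hspa1b, 97.96 CPM for Hsph1 and 590.9 CPM for Hspd1. The other was in inguinal wild-type library 4 for Hsp90aa1, at 181.9 CPM where the other 3 held 143 to 150 CPM.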

How the results depend on the processing

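Apart from leaving out libraries, 276 of 306 values of single genes kept their direction and their side of the threshold, and with 1 library left out 336 of 380 did. A value with the same direction for which DESeq2 gave no adjusted p was counted as keeping its side. The number of the 10 genes called in brown tissue was 0, and 3 with limma-voom (Dnajb1, Hspb1, Bag3) or all 4 groups in 1 fit (Hspa1a, Hspa1b, Bag3). It was 0 to 4 with 1 library left out, and over all genes 41 became 2905 without labelled knockout library 1, 1032 with DESeq2 and 3094 with limma-voom. In inguinal tissue 3 became 1 with all 4 groups in 1 fit (Hspa8) and 2 to 4 with 1 library left out. For the difference between depots 0 became 2 with DESeq2, 5 with limma-voom, 2 with non-robust dispersions (Hspa1a and Hspa1b) and 0 to 5 with 1 library left out. For wild-type tissues 6 became 3 with all 4 groups in 1 fit (Hsph1, Bag3 and Hspa8) and 5 or 6 with 1 library left out. The causes were not tested. With limma-voom the sign turned for Hspe1 in brown (-0.030) and Bag3 in inguinal tissue (-0.024) and for Hsp90aa1 in the difference (0.18). With 1 library left out, log2 changes that turned sign ranged in brown tissue from -0.14 to 0.12 for Hspe1 and from -0.45 to 0.0056 for Hspd1. In inguinal tissue they ranged from -0.057 to 0.095 for Dnajb1 and from -0.062 to 0.071 for Bag3, and in the difference from -0.25 to 0.16 for Hsp90aa1 and from -1.25 to 0.020 for Hsph1. In wild-type tissues they ranged from -0.032 to 0.32 for Hspb1, from -0.23 to 0.073 for Hsp90aa1 and from -0.0099 to 0.069 for Hspd1. Hspa1b passed in inguinal tissue with no filter (0.0418), DESeq2 (0.0142), non-robust dispersions (0.0493) or without wild-type library 1 (0.0398) or knockout library 4 (0.00323).

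Correlations of same-numbered libraries were -0.04 to 0.17 in brown tissue (-0.15 to 0.08 for other numbers) and -0.10 to 0.05 in inguinal tissue (-0.10 to 0.14). The 3 highest in brown were same-numbered pairs, but not every pair was above 0.1, so the numbers were not taken to pair the libraries. With the replicate number as a block, the counts of genes called were 0 in brown, 4 in inguinal, 0 in the difference and 5 in wild-type tissues. Hspa1b then passed in inguinal tissue (adjusted p = 0.0181) and Hspe1 did not in wild-type tissues (0.0538). Depth limits the inducible HSP70 genes most, at 3 to 77 counts in every library but brown labelled knockout library 1.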
